A study of Mus musculus with 16 samples.

Results

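The enzymes of the hexosamine pathway were followed in 16 RNA-seq libraries of 6DT1 cells, a mammary cancer cell line of FVB/N1 mice. The set holds 7 of the 25745 genes in the deposited count table, Gfpt1, Gfpt2, Gnpnat1, Pgm3, Uap1, Ogt and Nagk, listed by their place in the pathway. The set was proposed with results of these data in view, because Gfpt2 was read in the cells with the empty vector and nearly absent from the cells with the CLIC4 lentivirus. The Gfpt2 difference between the vectors is therefore given as a description without a test, and the calls of the other 6 enzymes between the vectors are no independent support for it.

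The 4 groups of 4 libraries each were empty vector with H2O2 (libraries 13 to 16), empty vector untreated (libraries 9 to 12), CLIC4 lentivirus with H2O2 (libraries 5 to 8) and CLIC4 lentivirus untreated (libraries 1 to 4). H2O2, hydrogen peroxide, was given at 1 µM for 24 h. Every group was transduced, either for expression of CLIC4, which belongs to the chloride intracellular channel family and is called an oxidoreductase in the series title, or with the empty vector. The labels disagree on the genotype, since the descriptions read knockout of CLIC4 for libraries with the empty vector and wild type for the others, and the series text speaks of vectors. The vector's promoter and the number of clones are not stated. Mitochondrial function and oxidant resistance are the subject named in the title. Separate cultures are not mentioned for libraries of 1 group, so the spread behind each p-value may be technical.

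The hexosamine pathway branches off glycolysis at fructose 6-phosphate and ends in UDP-N-acetylglucosamine (UDP-GlcNAc), the sugar donor for N-glycans, O-GlcNAc on nuclear and cytosolic proteins, and glycosaminoglycans. GFPT1 or its isozyme GFPT2 moves the amide nitrogen of glutamine onto fructose 6-phosphate in the step that controls the flow into the pathway. GNPNAT1 then acetylates glucosamine 6-phosphate, PGM3 moves the phosphate, and UAP1 adds UMP to give UDP-GlcNAc. NAGK brings salvaged N-acetylglucosamine back into the pathway, and OGT spends UDP-GlcNAc to put O-GlcNAc on proteins.

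The promoters of the isozyme genes are printed because Gfpt1 was read in every library and Gfpt2 mainly in those with the empty vector. They are the 250 bases before the RefSeq start on GRCm38.p6, both on the plus strand, at chr11:49793905-49794154 for Gfpt2 and chr6:87042596-87042845 for Gfpt1. Capitals mark a match to the AP-1 motif, TGANTCA.
Gfpt2: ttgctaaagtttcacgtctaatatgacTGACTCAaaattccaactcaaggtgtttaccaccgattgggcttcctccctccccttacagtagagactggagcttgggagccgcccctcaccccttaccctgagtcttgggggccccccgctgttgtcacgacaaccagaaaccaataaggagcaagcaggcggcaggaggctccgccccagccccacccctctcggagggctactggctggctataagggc
Gfpt1: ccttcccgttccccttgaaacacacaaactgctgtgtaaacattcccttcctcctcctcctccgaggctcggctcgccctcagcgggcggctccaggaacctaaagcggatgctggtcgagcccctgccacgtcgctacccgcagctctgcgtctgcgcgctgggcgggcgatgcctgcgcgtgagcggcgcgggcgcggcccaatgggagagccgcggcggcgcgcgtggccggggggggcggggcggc
The Gfpt2 stretch held 57.6% G and C with 8 CpG dinucleotides, and the Gfpt1 stretch 72% with 32. Over 32851 promoters of the same length the medians were 52.4% and 6. The TGANTCA match of Gfpt2 lay 223 bases before the start, and 6.75% of all these promoters hold that motif. Of 7 promoters of the set (Ogt has 2 entries, and none was at hand for Gnpnat1), Gfpt2's was the one with a match to any of 6 motifs searched on both strands. The other motifs were CACGTG (6.02% of all promoters), TGATGNAA (3.45%), TGACGTG (1.65%), the NF-kB motif (0.356%) and the endoplasmic reticulum stress element (0.113%). A match is a description of these letters.

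Total counts ran from 47.1 M to 61.9 M per library. One untreated empty-vector library, number 11, stood apart. Its correlation over genes (log2 CPM) with the other libraries of its group was at most 0.910, whereas all other pairs within groups reached at least 0.997. The spread between libraries, as edgeR's common biological coefficient of variation, was 23.1% with library 11 and 5.28% without it. Untreated differences of enzymes and other pathway genes between the vectors are therefore given with and without library 11. Clic4 had 39.5 to 45.2 CPM (counts scaled to library size) in empty-vector libraries with H2O2, 41.2 to 44.7 CPM in untreated empty-vector libraries other than library 11, which had 138, 230 to 258 CPM in CLIC4 libraries with H2O2 and 222 to 244 CPM in untreated CLIC4 libraries. Here and below CPM is scaled by edgeR's trimmed mean of M values (TMM). Of 6 mammary epithelial markers 5 were in the table, of which Krt8, Krt18 and Krt19 were read at 76.2 to 632 CPM in every library. The list summed to 921 to 1029 CPM in empty vector with H2O2 and 940 to 1396 CPM in empty vector untreated. Its sums were 580 to 609 CPM in CLIC4 with H2O2 and 564 to 618 CPM in CLIC4 untreated. By edgeR, Krt8, Krt18 and Krt19 were called higher with the empty vector under H2O2 (log2 differences 0.52, 1.06 and 0.99). The calls held in untreated cells. Epcam and Cdh1 were at or below 0.126 CPM except in library 11, with 13.0 and 1.53 CPM. The summed mesenchymal list (Vim, Cdh2, Zeb1, Zeb2, Fn1, Twist1) ran from 3901 to 4358 CPM in empty vector with H2O2, 3995 to 4291 CPM in empty vector untreated, 2698 to 2837 CPM in CLIC4 with H2O2 and 2711 to 2774 CPM in CLIC4 untreated. The sums were mostly Vim. With H2O2, Vim (log2 difference 0.54), Fn1 (2.55) and Twist1 (1.49) were called higher with the empty vector, and again in untreated cells. Zeb2 was called lower with H2O2 (-0.26, edgeR adjusted p = 0.037), and Zeb1 was not called there (0.33, adjusted p = 0.085). In untreated cells Zeb1 was called higher (0.71) and Zeb2 was not called (-0.14). Cdh2 was at or below 0.13 CPM throughout, and of the 3 basal markers Krt5 and Krt14 were at or near 0. The third, Trp63, averaged 0.166 ± 0.0539 CPM in empty vector with H2O2 against 4.65 ± 0.185 CPM in CLIC4 with H2O2, and 0.176 ± 0.0384 CPM in untreated empty vector without library 11 (0.430 ± 0.509 with it) against 4.36 ± 0.479 CPM in untreated CLIC4. Of the immune list 3 of 5 markers were in the table. Its sums were 224 to 253 CPM in empty vector with H2O2, 218 to 383 CPM in empty vector untreated, 80.9 to 92.6 CPM in CLIC4 with H2O2 and 77.3 to 82.9 CPM in CLIC4 untreated, mostly Cd68, with Ptprc at or below 0.0536 CPM. The 4 endothelial markers, mostly Cdh5, summed to 3.53 to 4.73 CPM in empty vector with H2O2, 3.78 to 7.78 CPM in empty vector untreated, 82.0 to 85.9 CPM in CLIC4 with H2O2 and 79.9 to 85.2 CPM in CLIC4 untreated, and the fibroblast list to 13.4 to 20.6 CPM in all. Its members moved in opposite directions. With H2O2, Pdgfra was higher with the empty vector (log2 difference 1.66) and Col1a1 was lower (-1.56). Both were called by edgeR, and again in untreated cells, while Pdgfrb was near 0. Dcn was lower with the empty vector (-5.14 with H2O2). It passed the filter on low counts only through the CLIC4 libraries, so its call is a description. Dcn had 13 counts in empty vector with H2O2 against 471 in CLIC4 with H2O2. In untreated cells it had 22 counts with the empty vector (19 without library 11) against 429 with CLIC4. The part of these differences in the results was not tested.

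Empty-vector cells carried more transcript for 4 forward enzymes of the route to UDP-GlcNAc than CLIC4 lentivirus cells, with and without H2O2. Gfpt1, Gnpnat1, Pgm3 and Uap1 were 1.57 to 2.20 times as high with the empty vector, and Gfpt2 was read almost solely there. Nagk, the salvage kinase, and Ogt, which uses the product, did not pass the test between the vectors in either condition. Of the 6 enzymes tested, 4 rose and 0 fell in untreated cells and again with H2O2, with all 16 libraries and without library 11 (edgeR quasi-likelihood test, Benjamini-Hochberg adjusted p under 0.05 over all genes). Without library 11 the log2 differences with H2O2 were 0.71 for Gfpt1, 1.12 for Gnpnat1, 1.14 for Pgm3 and 0.65 for Uap1. Among all 14445 genes tested, 53.3% were called in untreated cells, 29% higher and 24.3% lower, and with H2O2 42.1%, 22.1% higher and 20% lower. Without library 11, 74.4% of 14602 genes were called in untreated cells and 73.8% with H2O2, 37% and 36.6% being higher. A large share of all genes thus differed between the vectors, and 4 of 6 enzymes (66.7%) does not set the pathway apart from it. The libraries are bulk, so fewer cells of a type and less RNA per cell cannot be told apart.

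**Figure D1:**
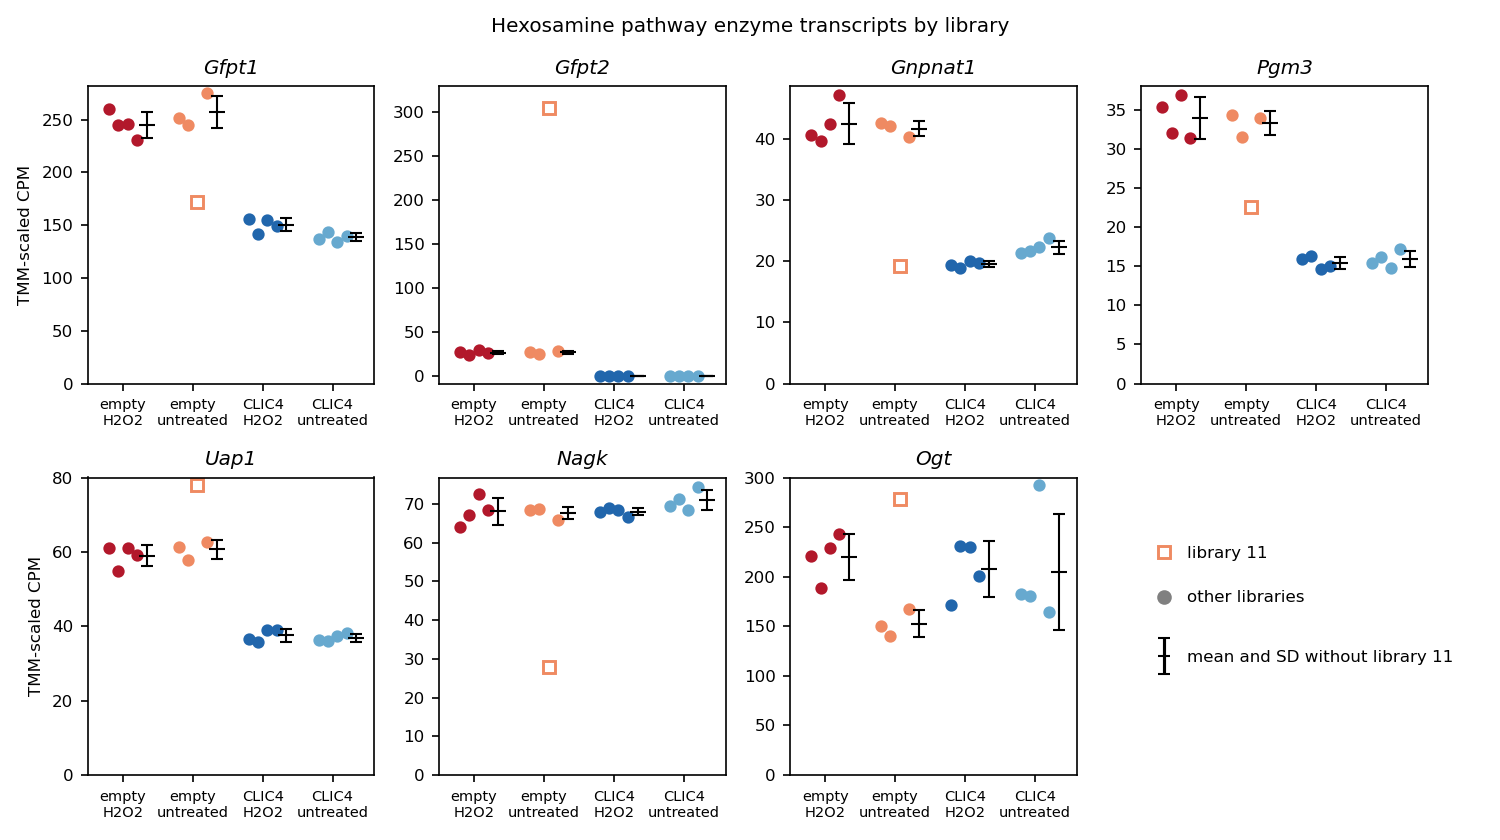
TMM-scaled CPM (vertical axes, each with its own scale) of the 7 enzymes in each library, by group. Points are libraries, the open square is library 11, and bars give the mean and SD without library 11. Gfpt1, Gnpnat1, Pgm3 and Uap1 lie higher in both empty-vector groups, Gfpt2 is at 24.5 CPM or more there and at 0.0354 CPM or less with CLIC4, and Nagk lies at 64.0 to 74.5 CPM outside library 11.

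Gfpt1, the first-step isozyme found in most tissues, lies at 6:87042846-87092197 on mm10 (plus strand). It had 260, 245, 246 and 230 CPM in empty vector with H2O2 and 252, 245, 172 and 275 CPM in untreated empty vector, where 172 is library 11. It had 156, 142, 155 and 149 CPM in CLIC4 with H2O2, and 137, 144, 134 and 140 CPM in untreated CLIC4. Every empty-vector library, library 11 included, was above every CLIC4 library. The share of all genes lying apart between the vectors in this way was not counted. Such gaps, here and for Gnpnat1, Pgm3 and Uap1 below, therefore do not set the enzymes apart. The edgeR log2 difference, empty vector minus CLIC4, was 0.70 ± 0.107 (SE) with H2O2 (adjusted p = 9.1e-05) and 0.77 ± 0.107 in untreated cells (adjusted p = 4.0e-05). Without library 11 the untreated difference was 0.89 ± 0.0441, a 1.86-fold higher level.

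Gfpt2, the isozyme with a narrower tissue range, lies at 11:49794178-49838613 on mm10 (plus strand) and had 27.9, 24.5, 29.7 and 26.8 CPM in empty vector with H2O2. Untreated empty-vector libraries had 27.8, 25.2, 305 and 29.3 CPM, with library 11 far above the rest. With CLIC4 and H2O2 the raw counts were 0, 0, 0 and 1, and in untreated CLIC4 libraries 1, 1, 2 and 1. The empty-vector libraries other than 11 thus lay between 24.5 and 29.7 CPM, and no CLIC4 library held more than 2 reads. Over summed counts, the ratio of empty vector to CLIC4 was 6218 with H2O2 (6277 counts against 1, exact 95% interval 1116 to 245630). In untreated cells it was 3420 (16397 counts against 5, interval 1465 to 10533), and 1187 without library 11 (4636 counts against 5, 508 to 3658). The intervals cover counting error alone.

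Deposited FPKM is scaled to gene length, so the isozymes can be added on that scale. Their sum was 53.7 ± 2.14 FPKM in empty vector with H2O2 and 55.4 ± 3.90 FPKM in untreated empty vector without library 11 (69.3 ± 27.9 with it). It was 25.8 ± 1.59 FPKM in CLIC4 with H2O2 and 23.4 ± 0.618 FPKM in untreated CLIC4 (SD, n = 4 libraries, 3 without library 11). Gfpt2 made up 19.1% ± 1.24 of that sum in empty vector with H2O2 and 18.7% ± 0.321 in untreated empty vector without library 11, so most of the first-step transcript was Gfpt1 in these libraries. In library 11 the Gfpt2 share was 72.3%, and with it the untreated mean was 32.1% ± 26.8. With CLIC4 the mean share was 0.00987% with H2O2 and 0.0428% untreated. These shares rest on a deposited Gfpt2 FPKM of 0 or 0.01 and at most 2 reads per library. They cannot be compared between the conditions.

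**Figure D2:**
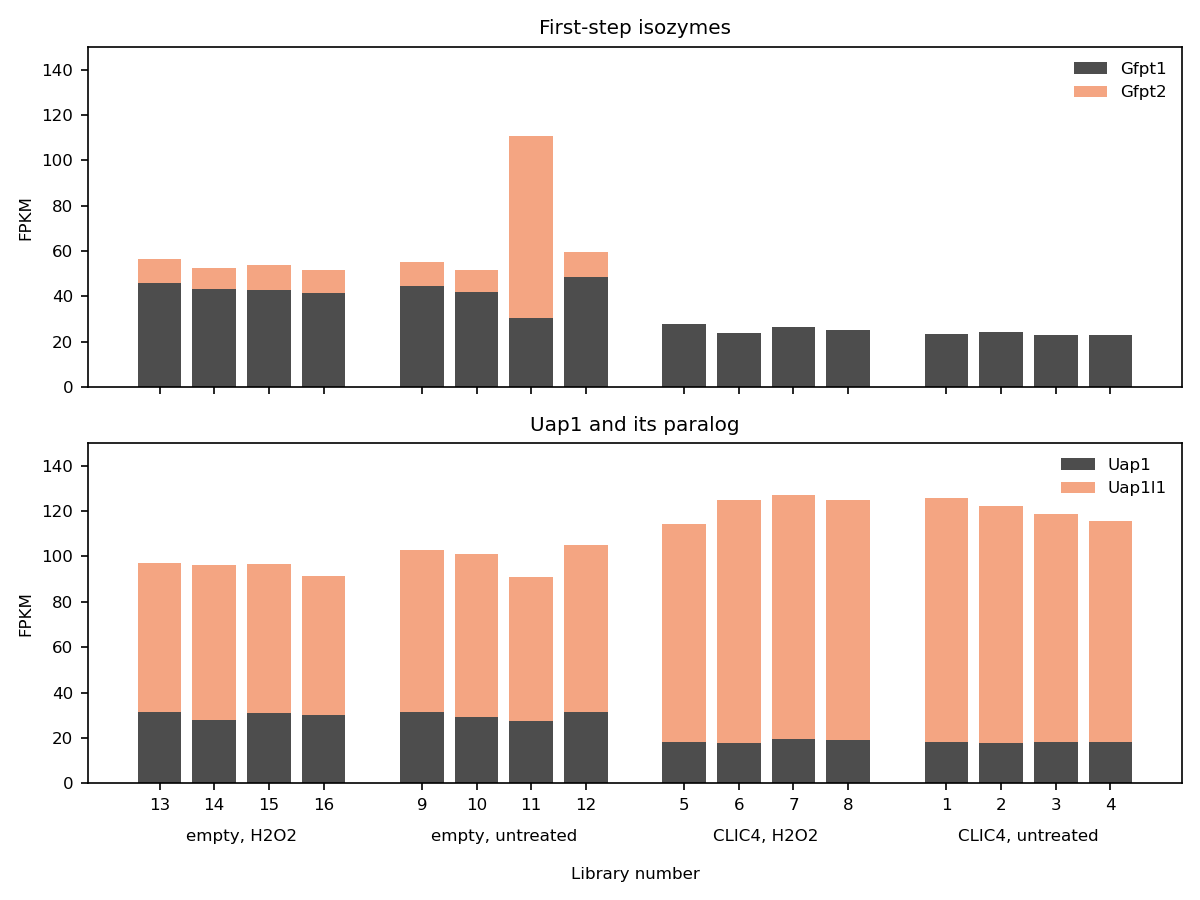
FPKM (vertical axes) in each library, grouped by vector and treatment, of Gfpt1 with Gfpt2 stacked on it (top) and of Uap1 with Uap1l1 stacked on it (bottom). Gfpt2 adds 9.3 to 11.1 FPKM in empty-vector libraries other than 11 and 80.1 FPKM in library 11, while the Uap1l1 part is smaller with the empty vector than with CLIC4.

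Gnpnat1, the acetyltransferase, had 40.5, 39.6, 42.4 and 47.2 CPM in empty vector with H2O2, and 42.6, 42.0, 19.2 (library 11) and 40.3 CPM in untreated empty vector. CLIC4 libraries had 19.3, 18.9, 20.03 and 19.7 CPM with H2O2, and 21.3, 21.6, 22.4 and 23.7 CPM untreated. All empty-vector libraries but library 11 were above all CLIC4 libraries, and library 11 sat within the CLIC4 range. The log2 difference was 1.12 ± 0.184 with H2O2 (edgeR adjusted p = 1.8e-04) and 0.69 ± 0.183 in untreated cells (adjusted p = 0.0056). Without library 11 it was 0.91 ± 0.0531 in untreated cells (adjusted p = 6.8e-12), and in a fit of those groups alone with library 11 the call was lost (0.69, adjusted p = 0.061). Gnpnat1, at 14:45376334-45404913 on the minus strand, overlaps Styx on the other strand. Reads from a stretch shared by overlapping genes may not have been told apart, since strandedness is not stated.

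Pgm3, the phosphoacetylglucosamine mutase at 9:86554377-86571842 (minus strand), had 35.4, 32.0, 36.9 and 31.4 CPM in empty vector with H2O2, and 34.3, 31.6, 22.6 (library 11) and 34 CPM in untreated empty vector. It had 15.9, 16.3, 14.6 and 15.0 CPM in CLIC4 with H2O2, and 15.4, 16.2, 14.8 and 17.2 CPM in untreated CLIC4. The vectors did not overlap, with library 11 the lowest of the empty-vector libraries. The log2 difference was 1.13 ± 0.116 with H2O2 (edgeR adjusted p = 1.9e-06) and 0.95 ± 0.116 in untreated cells (adjusted p = 1.1e-05), or 1.07 ± 0.0620 without library 11. Pgm3 overlaps Dop1a on the other strand, so the same limit holds.

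Uap1, at 1:170141938-170174957 (minus strand), makes UDP-GlcNAc in the last step. It had 61.0, 55.0, 61.0 and 59.1 CPM in empty vector with H2O2, and 61.5, 57.9, 78.0 (library 11) and 62.7 CPM in untreated empty vector. The CLIC4 libraries had 36.5, 35.7, 39.0 and 39.1 CPM with H2O2, and 36.2, 36.0, 37.4 and 38.2 CPM untreated. The vectors did not overlap, and here library 11 was the highest. The log2 difference was 0.65 ± 0.0827 with H2O2 (edgeR adjusted p = 1.6e-05) and 0.81 ± 0.0829 in untreated cells (adjusted p = 1.7e-06), or 0.72 ± 0.0443 without library 11. Its paralog Uap1l1 went the other way: it averaged 137 ± 4.16 CPM in empty vector with H2O2 against 226 ± 3.25 CPM in CLIC4 with H2O2. In untreated cells it averaged 152 ± 24.9 CPM with the empty vector (139 ± 0.957 without library 11) against 228 ± 6.88 CPM with CLIC4. The log2 difference of Uap1l1 was -0.72 ± 0.0847 with H2O2 (edgeR adjusted p = 7.5e-06) and -0.59 ± 0.0845 in untreated cells (adjusted p = 4.9e-05), or -0.71 ± 0.0307 without library 11. On the FPKM scale Uap1l1 made up 68.5% ± 1.68 of the pair in empty vector with H2O2 and 70.1% ± 0.856 in untreated empty vector (70.2% without library 11), against 84.8% ± 0.770 in CLIC4 with H2O2 and 85.0% ± 0.751 in untreated CLIC4. The summed pair was 95.4 ± 2.63 FPKM in empty vector with H2O2 against 123 ± 5.78 FPKM in CLIC4 with H2O2, and 99.9 ± 6.29 FPKM in untreated empty vector (103 ± 1.84 without library 11) against 121 ± 4.44 FPKM in untreated CLIC4.

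Nagk, the salvage kinase at 6:83794982-83804018 (plus strand), had 64.0, 67.2, 72.6 and 68.6 CPM in empty vector with H2O2, and 68.3, 68.8, 27.9 (library 11) and 65.9 CPM in untreated empty vector. It had 68.0, 68.9, 68.3 and 66.7 CPM in CLIC4 with H2O2, and 69.6, 71.4, 68.5 and 74.5 CPM in untreated CLIC4. Apart from library 11 the 4 groups lay in one band. The log2 difference between the vectors was 0.00 ± 0.198 with H2O2 (edgeR adjusted p = 0.996) and -0.30 ± 0.199 in untreated cells (adjusted p = 0.218). Without library 11 it was 0.00 ± 0.0362 with H2O2 (adjusted p = 0.940) and -0.07 ± 0.0392 untreated (adjusted p = 0.130), and without libraries 3 and 11 the untreated difference of -0.09 was called (adjusted p = 0.043). On the FPKM scale Nagk was the highest of the 7 enzymes by its mean in every group, at 65.97 to 67.5 FPKM without library 11.

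Ogt, the O-GlcNAc transferase at X:101640060-101684351 (plus strand), had 220, 188, 229 and 243 CPM in empty vector with H2O2, and 150, 140, 279 (library 11) and 167 CPM in untreated empty vector. It had 171, 231, 230 and 201 CPM in CLIC4 with H2O2, and 182, 180, 292 (library 3) and 165 CPM in untreated CLIC4. The vectors overlapped in both conditions, and each untreated group held one library far above its others. The log2 difference was 0.08 ± 0.217 with H2O2 (edgeR adjusted p = 0.805) and -0.15 ± 0.217 in untreated cells (adjusted p = 0.563). Without library 11 the untreated difference was -0.42 ± 0.189 (adjusted p = 0.061), without library 3 it was 0.07, and without both it was -0.21 (adjusted p = 0.141). With library quality weights in limma voom, Ogt was called lower in untreated empty-vector cells (-0.37, adjusted p = 0.020).

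Ogt also varied more between libraries of a group than the other enzymes outside library 11. Its coefficient of variation was 10.5% in empty vector with H2O2, 8.99% in untreated empty vector without library 11, 13.6% in CLIC4 with H2O2 and 28.7% in untreated CLIC4. Genes of at least 10 CPM had median coefficients of 3.00% to 4.23% over the 4 groups, and 92.9% to 99.7% of those genes varied less than Ogt. The other enzymes lay between 1.36% for Nagk in CLIC4 with H2O2 and 7.97% for Gnpnat1 in empty vector with H2O2, Gfpt2 being left out where it had 5 counts or fewer.

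Per length the enzymes held the same order in both CLIC4 groups and in empty vector with H2O2. In empty vector with H2O2 the mean FPKM was 67.5 for Nagk, 57.6 for Ogt, 43.4 for Gfpt1, 30.1 for Uap1, 22.6 for Gnpnat1, 14.8 for Pgm3 and 10.3 for Gfpt2. The FPKM ranges of Nagk and Ogt overlapped there and in untreated CLIC4, and all lower neighbours in these groups were apart. In untreated empty vector without library 11 Gfpt1 (45.1 FPKM) stood above Ogt (39.9 FPKM), with overlapping ranges.

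The response to H2O2 was asked within each vector. No enzyme passed the test in either vector: 0 of 7 in empty-vector cells and 0 of 6 in CLIC4 cells, with all 16 libraries and without library 11. Over all genes 0% were called in each with 16 libraries (edgeR; 2120 genes in empty-vector and 255 in CLIC4 cells at an unadjusted p under 0.05). Without library 11, 0.24% (35 genes) were called in empty-vector cells and 0% in CLIC4 cells, with 1994 and 2135 genes at an unadjusted p under 0.05. DESeq2 called 38 and 1 genes with 16 libraries, none of them in the set. With so few genes called, the enzymes' count does not set them apart.

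In empty-vector cells, Ogt had 188 to 243 CPM with H2O2 against 140 to 167 CPM untreated in libraries other than 11, and these ranges did not overlap. How many of all genes lay apart in this way was not counted, so the ranges do not set Ogt apart. The log2 change was 0.26 ± 0.217 with all libraries (edgeR adjusted p = 0.510) and 0.53 ± 0.189 without library 11 (adjusted p = 0.238). It was called in fits added after the values were seen, without libraries 3 and 11 (0.54, adjusted p = 0.042) and with the compared groups alone without library 11 (0.54, adjusted p = 0.026). In CLIC4 cells the Ogt change was 0.02 ± 0.217 (adjusted p = 1), and the difference of the responses between the vectors was 0.23 ± 0.307 (adjusted p = 0.740), or 0.51 ± 0.256 without library 11 (adjusted p = 0.362).

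Gfpt2 in empty-vector cells changed by -1.83 ± 0.656 on the log2 scale with H2O2 when library 11 was among the untreated libraries (edgeR adjusted p = 0.339) and by -0.01 ± 0.0657 without it (adjusted p = 0.979). Its share of the isozyme FPKM, 19.1% with H2O2 against 32.1% untreated, differed by -12.9 percentage points when library 11 was kept (exact two-sided permutation p = 0.743; the smallest p that 4 against 4 libraries allow is 0.0286). Without library 11 the difference was 0.482 percentage points (exact permutation p = 0.571; the smallest possible is 0.0571). The H2O2 change of Gfpt2 in CLIC4 cells was not computed, since these groups held 1 and 5 counts.

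In CLIC4 cells Gnpnat1 had 18.9 to 20.03 CPM with H2O2 against 21.3 to 23.7 CPM untreated, without overlap, and a log2 change of -0.19 ± 0.182 (edgeR adjusted p = 1), or -0.19 ± 0.0518 without library 11 in the shared fit (adjusted p = 0.162). The other CLIC4 changes lay between -0.06 for Nagk and 0.12 for Gfpt1, with overlapping groups. The share of all genes without overlap was not counted here either. In empty-vector cells without library 11 the changes of Gfpt1, Gnpnat1, Pgm3, Uap1 and Nagk lay between -0.07 and 0.03, with standard errors of 0.0391 to 0.0597. The difference of the H2O2 responses between the vectors was called for 0 of 6 enzymes, beside 0% of all genes with 16 libraries and 0.192% without library 11 (0.0685% higher and 0.123% lower). A p above the threshold does not show that the responses were alike.

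Genes for the transport and handling of glucose and glutamine, named supply genes here, were called higher with the empty vector more often than lower. Of these 9 genes, 7 were higher and 1 lower in untreated cells (7 and 2 without library 11). With H2O2, 6 were higher and 2 lower. Over all genes 29% were higher and 24.3% lower in untreated cells (37% and 37.3% without library 11), and 22.1% higher and 20% lower with H2O2 (36.6% and 37.2% without library 11). The median log2 difference of the 9 genes was 0.39 with H2O2, beside -0.01 over all genes tested, and 0.64 in untreated cells, beside 0.03 (0.57 beside -0.02 without library 11). Slc2a3, a high-affinity glucose transporter, averaged 130 ± 8.28 CPM in empty vector with H2O2 against 0.359 ± 0.0257 CPM in CLIC4 with H2O2, and 118 ± 14.4 CPM in untreated empty vector against 0.458 ± 0.118 CPM in untreated CLIC4. Its log2 difference was 8.49 ± 0.176 with H2O2 and 8.01 ± 0.172 untreated (edgeR adjusted p = 1.1e-13 and 1.6e-13), or 8.10 ± 0.0823 untreated without library 11. Slc2a1, the common glucose transporter, differed by 0.95 ± 0.234 with H2O2 and 1.48 ± 0.236 untreated (1.04 without library 11), and Slc7a5, an amino acid exchanger, by 0.78 with H2O2 and 0.86 untreated (0.94 without library 11). Hk2, a hexokinase, differed by 0.39 with H2O2 and 0.52 untreated (0.57 without library 11). Glul, glutamine synthetase, was lower with the empty vector, with log2 differences of -0.89 with H2O2 and -0.64 untreated (-0.82 without library 11).

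Among 10 genes for the reverse reaction, salvage and cycling of the sugar, calls lay in both directions. Of the 10, 1 was higher and 5 lower in untreated cells (2 and 5 without library 11), and 1 was higher and 5 lower with H2O2 (3 and 5 without library 11). The shares lower over all genes were 24.3% untreated and 20% with H2O2 (37.3% and 37.2% without library 11). The median log2 difference of the list was -0.16 with H2O2 and -0.27 untreated (-0.23 without library 11). The list holds Uap1l1, the Uap1 paralog, which is 1 of the 5 called lower. Without it, in a count chosen after the values were seen, 1 of 9 was higher and 4 lower in each condition, with medians of 0.02 with H2O2 and -0.03 untreated, so the sign of the list's median with H2O2 turned. When library 11 was left out too, 2 were higher and 4 lower in untreated cells (median -0.01). With H2O2, 3 were then higher and 4 lower (median 0.02). Gnpda1 and Gnpda2, the deaminases that turn glucosamine 6-phosphate back to fructose 6-phosphate, were both lower. Gnpda1 averaged 26.3 ± 0.975 CPM in empty vector with H2O2 against 49.8 ± 1.93 CPM in CLIC4 with H2O2, a log2 difference of -0.92 ± 0.273 (edgeR adjusted p = 0.014), and -1.20 ± 0.275 in untreated cells (-0.91 without library 11). Gnpda2 differed by -0.34 ± 0.0711 with H2O2 and -0.52 ± 0.0713 untreated (-0.46 without library 11). Renbp, the N-acetylglucosamine epimerase, differed by -0.54 with H2O2 and -0.64 untreated (-0.58 without library 11). Oga, the enzyme that removes O-GlcNAc, is in the table under its older symbol Mgea5 and averaged 174 ± 2.83 CPM in empty vector with H2O2 against 171 ± 3.00 CPM in CLIC4 with H2O2, and 167 ± 4.90 CPM in untreated empty vector against 170 ± 3.62 CPM in untreated CLIC4. It was not called between the vectors (log2 differences of 0.02 with H2O2, -0.03 untreated and -0.01 untreated without library 11).

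**Figure D3:**
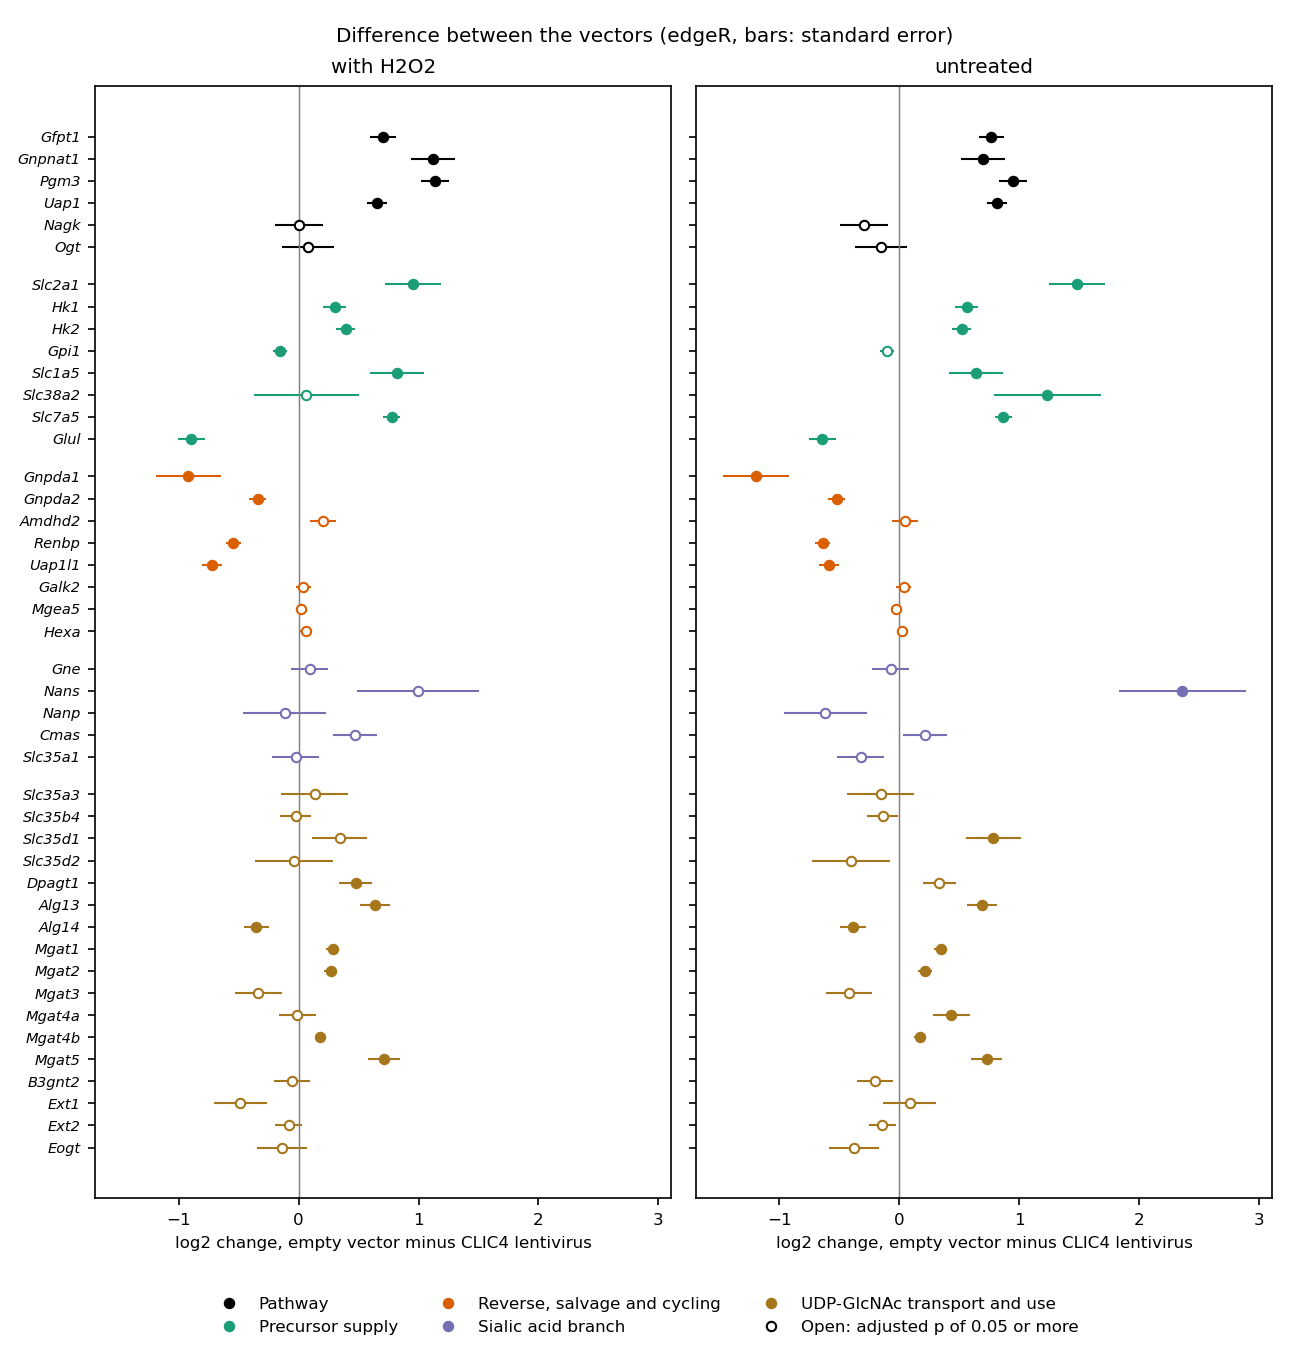
Log2 difference, empty vector minus CLIC4 lentivirus (horizontal axes), with H2O2 (left) and untreated (right), from the edgeR fit with 16 libraries. Bars are standard errors, and filled points have an adjusted p under 0.05. Gfpt2, Slc2a3, Has2 and Has3 are left out for their low counts or size. The 4 forward enzymes lie to the right of 0, and both Gnpda genes and Uap1l1 to the left.

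Users of UDP-GlcNAc moved in both directions. Of 20 genes for its transport and use, 19 were tested, of which 8 were higher and 1 lower in untreated cells (10 and 4 without library 11) and 7 higher and 2 lower with H2O2 (9 and 6 without library 11). The shares over all genes are those given for the supply genes. The median log2 difference of these users was -0.01 with H2O2 and 0.08 untreated (0.14 without library 11). Mgat5, an N-glycan branching enzyme, differed by 0.71 ± 0.132 with H2O2 and 0.73 ± 0.132 untreated (0.89 without library 11). Mgat1, which starts complex N-glycans, differed by 0.29 with H2O2 and 0.34 untreated (0.33 without library 11), and Alg13, part of the second step of the lipid-linked precursor, by 0.64 with H2O2 and 0.69 untreated (0.51 without library 11). Has2, a hyaluronan synthase, passed the filter on low counts only through the empty-vector libraries, so its call is a description. It had 45 counts in empty vector with H2O2 against 0 in CLIC4 with H2O2, and 123 in untreated empty vector (38 without library 11) against 1 in untreated CLIC4. Has3, also a hyaluronan synthase, was among the 2 users called lower with H2O2, at 18 counts with the empty vector against 63 with CLIC4. That call rests on few reads and is a description, and Has3 stays in the counts that follow. Without Has2, 6 users of 18 were higher and 2 lower with H2O2 (8 and 6 without library 11). In untreated cells 7 were higher and 1 lower (9 and 4 without library 11), and the median became -0.03 (0.08 without library 11). In the sialic acid branch 5 of 6 genes were tested, of which 1 was higher and 0 lower in untreated cells (2 and 2 without library 11) and none with H2O2 (2 higher without library 11). Nans, sialic acid synthase, was the one called, by 2.36 ± 0.528 untreated, and without library 11 by 1.06 ± 0.0418. With H2O2 it averaged 78.2 ± 3.35 CPM with the empty vector against 39.3 ± 1.59 CPM with CLIC4 (log2 difference 0.99 ± 0.508, edgeR adjusted p = 0.136; called without library 11). No gene of the 4 lists was called for H2O2 within either vector by edgeR with 16 libraries, beside 0% of all genes, and 1 supply gene was called in CLIC4 cells in the compared groups alone.

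Library 11 departed from libraries 9, 10 and 12 in each of the enzymes, and not in one direction. It held 11.1 times the mean Gfpt2 CPM of those libraries, 1.83 times the Ogt and 1.28 times the Uap1. It held 0.667 times the Gfpt1, 0.678 times the Pgm3, 0.460 times the Gnpnat1 and 0.412 times the Nagk. Among other pathway genes, Slc2a1 was at 2.43 times and Gnpda1 at 0.274 times. Counts and FPKM also related differently in library 11. The effective length implied by the ratio of deposited count to FPKM was 4031 bases for Gfpt1 in library 11, against 5907 ± 88.0 in libraries 9, 10 and 12. For Nagk it was 938 against 1061 ± 8.70, and for Gfpt2 2740 against 2739 ± 1.55. The deposited FPKM, which is not TMM-scaled, put some genes of library 11 on the other side of libraries 9, 10 and 12. Uap1 had 27.7 FPKM in library 11 against 30.7 ± 1.38 FPKM, lower where its TMM-scaled CPM was higher, and Uap1l1 had 63.1 FPKM against 72.3 ± 1.02 FPKM. Ogt was higher on both scales, at 47.4 FPKM against 39.9 ± 4.67 FPKM. Gfpt1 was lower on both scales, at 30.7 FPKM against 45.1 ± 3.10 FPKM (SD, n = 3).

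**Figure D4:**
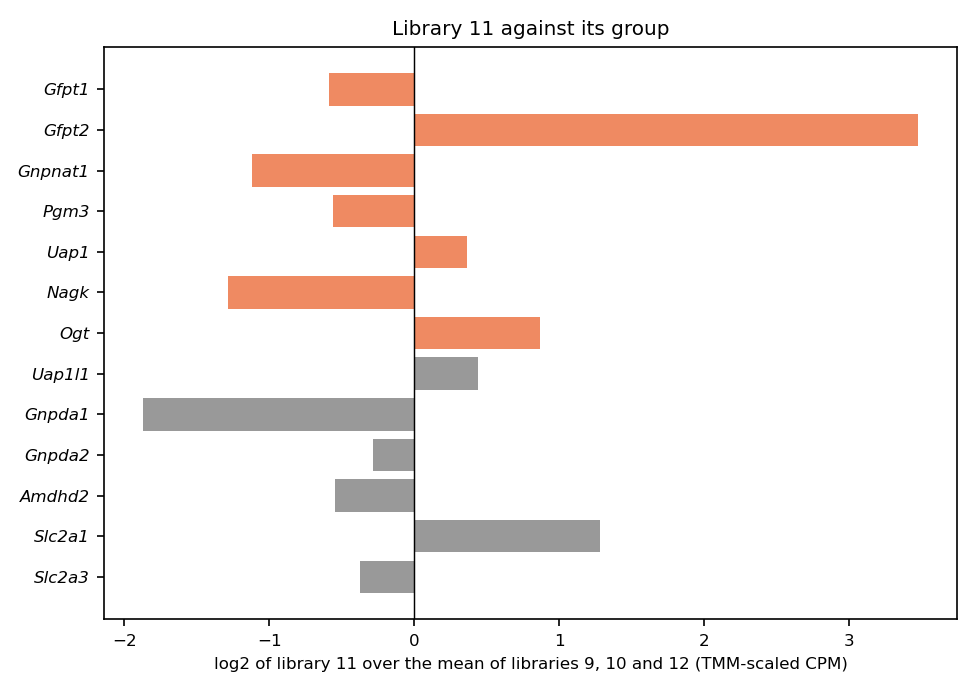
Log2 of library 11 over the mean of libraries 9, 10 and 12 in TMM-scaled CPM (horizontal axis) for the 7 enzymes (orange) and 6 other pathway genes (grey). Gfpt2, Slc2a1, Ogt, Uap1l1 and Uap1 lie to the right of 0, and the others to the left; on the FPKM scale Uap1 and Uap1l1 were lower in library 11.

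The genes whose pattern was most like that of Gfpt2 were sought over the 15 libraries other than library 11, by the mean absolute difference of log2(FPKM + 0.1), among 25371 genes. The nearest was Ccr4, a chemokine receptor gene, at a mean difference of 0.23, with 7.74 ± 0.602 FPKM in empty vector with H2O2, 8.70 ± 0.572 FPKM in untreated empty vector, and 0.04 FPKM or less in every CLIC4 library. Uox, urate oxidase, followed at 0.24, Rec114, a meiotic recombination gene, at 0.27, Fcho1, an endocytosis gene, at 0.30, and Arhgap8 at 0.33. In library 11 they had 2.35, 4.33, 6.48, 2.64 and 2.68 FPKM in that order, against 80.1 FPKM for Gfpt2. With limits chosen after the values were seen, 4 of 25372 genes (Gfpt2, Ccr4, Rec114 and Uox) had at least 5 FPKM in all 7 of these empty-vector libraries and at most 0.05 FPKM in all 8 CLIC4 libraries.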

How the data were processed

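Per the labels' protocols, RNA came from a Qiagen RNeasy kit on a QIAcube and libraries from standard Illumina methods. The submitters' processing notes name cutadapt, STAR, RSEM and mm10. No version, annotation or strandedness is stated there. The authors' deposited table holds whole-number counts for 25745 genes, possibly rounded RSEM estimates, and their deposited FPKM, scaled by the authors to length and depth, covers 25372 genes. The members, lists and tests were chosen with earlier results of these data known.

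Counts were fitted with edgeR 4.0.16 in R 4.3.3 (robust quasi-likelihood F test, TMM, filterByExpr, a coefficient per group, 16 libraries in one fit), with Benjamini-Hochberg adjustment over all 14445 genes tested and a threshold of 0.05. Standard errors are the log2 change over the square root of F. Of the 7 enzymes all passed the filter. Named list genes were, per list, up to 4 with the smallest adjusted p in untreated cells called alike with and without library 11. Glul, Gnpda1, Uap1l1, Oga and Has3 were named after their values were seen. Some genes counted in the lists are not reported by name here. No pair of libraries agreed within sampling noise (lowest chi-square per degree of freedom 5.05). Alternatives were RLE scaling, DESeq2 1.42.0, other filters, compared groups alone, limma 3.58.1 on log2(FPKM + 1) or log2(FPKM + 0.1), voom with library weights and leaving out each library. Positions are from GENCODE M21 (mm10), and promoters from RefSeq, GRCm38.p6.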

Additional observations from a re-analysis of the deposited data

Results flagged for a closer look

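Within groups of 4 libraries, a library whose gap to its nearest neighbour was a larger part of the group's range in TMM-scaled CPM than Dixon's 95% critical value allows was picked out. Of 28 groups, 7 enzymes in 4 groups each, 5 held such a library. Chance picks about 1 in 20 groups of continuous values. In 3 of the 5 it was library 11: Gfpt2 at 305 CPM against 25.2 to 29.3 CPM in libraries 9, 10 and 12, Gnpnat1 at 19.2 CPM against 40.3 to 42.6 CPM, and Nagk at 27.9 CPM against 65.9 to 68.8 CPM. Ogt in library 3 (untreated CLIC4) had 292 CPM against 165 to 182 CPM in libraries 1, 2 and 4. Gfpt2 in library 8 (CLIC4 with H2O2) had 0.0159 CPM, a single read, against 0 in libraries 5, 6 and 7. A single read among zeros always passes the critical value, so this group cannot be set against the chance rate.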

How the results depend on the processing

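Between the vectors, Gfpt1, Pgm3 and Uap1 kept their direction and call under every alternative tried, in untreated cells and with H2O2, and 3 to 5 of 6 enzymes were called in untreated cells and 4 with H2O2. For H2O2 in empty-vector cells 0 enzymes were called, and 1 (Ogt) in each of the fits added after the data were seen: without libraries 3 and 11, and compared groups alone without library 11. The Gfpt2 share difference ran from -17.5 to 0.482 percentage points over the fits leaving out 1 library. It was positive without library 11. Directions turned, none of them called, in these cases. For H2O2 in empty-vector cells, Gfpt1 turned to -0.034 with voom weights, -0.058 without libraries 3 and 11 and -0.056 in the compared groups alone without library 11, and Gfpt2 to 0.0066, 0.00043 and 0.0033 in these fits. Gnpnat1 turned to -0.010 with voom weights, and Uap1 to 0.0076 with limma on log2(FPKM + 1), with or without a filter, and 0.0079 on log2(FPKM + 0.1). Nagk between the vectors with H2O2 turned to -0.026 with a filter of 10 CPM. Over the fits leaving out 1 library, Nagk there ran from -0.022 to 0.032 and Ogt between the vectors in untreated cells from -0.42 (without 11) to 0.066 (without 3). Likewise Gfpt1 for H2O2 in empty-vector cells ran from -0.069 (without 11) to 0.14, Pgm3 for H2O2 in CLIC4 cells from -0.071 to 0.00029, Ogt there from -0.069 to 0.24 (without 3), and the Gfpt1 difference of responses from -0.19 (without 11) to 0.020. The cause was not tested. Calls between the vectors were lost with limma on FPKM without a filter for Hk2, Mgat1 and Mgat5 in untreated cells (limma adjusted p = 0.050, 0.073 and 0.064), Gnpda2 with H2O2 (0.105; lost in the other FPKM fits too) and Has2 (0.079 untreated, 0.584 with H2O2). Counts of list genes called between the vectors also moved by more than 1.5 times. In untreated cells supply genes higher ran from 4 to 7 and lower from 1 to 2, reverse and salvage genes higher from 1 to 2, sialic acid genes from 0 to 2 in each direction, and users higher from 3 to 10 and lower from 0 to 5. With H2O2 supply genes lower ran from 1 to 2, reverse and salvage genes higher from 1 to 3 and lower from 3 to 5, sialic acid genes higher from 0 to 2, and users higher from 3 to 9 and lower from 0 to 6. Counts over all genes moved by more than 1.5 times as follows. In untreated cells 7700 genes became 5107 with a filter of 10 CPM and 4426 in the compared groups alone. With H2O2, 6079 became 3973 and 10491 in those fits, 10956 with voom weights, 10779 without library 11 and 10828 without libraries 3 and 11. For H2O2 in empty-vector cells, 0 became 38 with DESeq2, 121 with voom weights, 35 without library 11, 1 without library 14, 292 without libraries 3 and 11, and 329 in the compared groups alone without library 11. For H2O2 in CLIC4 cells, 0 became 1 with DESeq2 and with voom weights, 121 in the compared groups alone, and 7 without libraries 3 and 11. For the difference of responses, 0 became 15 with DESeq2, 2 with voom weights, 28 without library 11, 1 without library 14 and 3 without libraries 3 and 11. No paired analysis was possible because no library number is shared by groups. Depth limits Gfpt2 with CLIC4, at 6 counts over 8 libraries.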
